A study of Mus musculus with 4 samples.

Results

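Brain of FoxO6-/- mice was compared with brain of WT mice on Affymetrix GeneChip mouse arrays, with 1 array for each genotype. The comparison rests on 12327 genes of the 18193 that have a named probe set, namely those whose mean brain signal reached the median of all signals in the series, 101, called the floor here. Each gene is given by its brightest probe set, and a ratio is always FoxO6-/- over WT, on the log2 scale unless a fold is named. The series also holds 1 array of mandible and maxilla from each genotype, whose signals are used below to show where else a gene was measured.

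The FoxO6-/- animals carry a null allele in which the coding exons of FoxO6 were replaced by a LacZ and neomycin cassette, on a C57BL/6 background, and the WT animals carry no modified allele. All 4 arrays are labelled postnatal day 0, and no agent was given to either genotype. Brain, mandible and maxilla were cut apart by hand with scissors from heads held in saline. The study's text names embryos before birth as the source of its mandible and maxilla arrays, which differs from these labels. The methods state that RNA of 4 animals was combined, in a passage on mandible and maxilla, and elsewhere that the mutants of such a pool included heterozygous animals, without naming a tissue. Whether either holds for brain is not stated in the sources used here, so heterozygous RNA on the brain array labelled FoxO6-/- cannot be told apart from null RNA. With 1 array per group there is no replicate error, no test and no SD, and the number of arrays limits the precision of every value below.

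FoxO6 is a forkhead transcription factor of the FoxO family, which acts downstream of insulin and growth factor signaling, and it is best known from neurons of the developing and adult brain. FoxO factors bind DNA elements that contain the core GTAAACA and are known for target genes of metabolism, stress defence and cell cycle arrest. At birth the mouse brain still holds dividing radial glia beside young neurons, few myelinating cells, and ventricles lined by ependymal cells that are starting to grow motile cilia.

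The labelled tissue was checked against marker lists. The 17 measured pan-neuronal genes summed to signals of 92928 on the FoxO6-/- and 75519 on the WT brain array, against 4776 and 7371 on the FoxO6-/- and WT jaw arrays. The brain arrays were not free of other tissues of the head. Skeletal muscle genes summed to 116545 on the FoxO6-/- and 144890 on the WT brain array, lens genes to 42599 and 15563, and genes of brown fat and adipocytes to 14544 and 94370. Cartilage genes summed to 76242 and 44768, and genes of skin and oral epithelium to 54073 and 41340. Foxo6 itself has no named probe set, which leaves the genotypes without a check by their targeted gene. Control signals were alike on both brain arrays. The 3' to 5' ratio of Actb was 2.22 on the FoxO6-/- and 2.21 on the WT array, and that of Gapdh 1.55 and 1.50. A set of 18 bacterial control probe sets had a median log2 ratio of 0.09. The jaw arrays were less alike, with 3.37 on the FoxO6-/- and 2.23 on the WT array for Actb, and 1.95 and 1.44 for Gapdh. Whether this difference bears on the jaw ratios and sums given below was not tested.

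Genes lower in FoxO6-/- brain outnumbered those that were higher. A signal at least 2-fold higher was found for 139 genes, 1.13% of those measured, and a signal at least 2-fold lower for 250 genes, 2.03%. Beyond 8-fold there were 9 genes on the higher side and 22 on the lower side. Over all measured genes the median ratio was 0.05 and 57.3% of genes lay above 0, with the middle 50% between -0.16 and 0.22. The split depends on the scaling. When each array was set to the same median signal, which shifts the median of all genes by 0.14, 227 genes were higher and 192 lower, so that 54.2% of these genes were on the higher side instead of 35.7%.

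Several probe sets of a gene give a check within the arrays. Of 4927 genes with more than 1 probe set above the floor, 55.1% had all of them on the same side of 0, and the SD of the difference between the 2 brightest was 0.39. Of 21 higher genes with several probe sets 18 had all on the higher side, but only 3 had all of them past 2-fold, namely Bpifb9b, a BPI fold protein secreted in the nose, Susd5, and Fstl5, a follistatin-like gene. Of 72 lower genes with several probe sets 63 had all on the lower side and 34 had all of them past 2-fold. Among these 34 were Thrsp, a regulator of fat synthesis, with ratios of -3.53 and -3.49, Plin5, a lipid droplet protein, with -2.88 and -2.81, and the fatty acid transporter Cd36 with 3 probe sets between -2.52 and -1.96. The remaining 118 higher and 178 lower genes had 1 probe set above the floor, and their ratios have no such check.

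**Figure D1:**
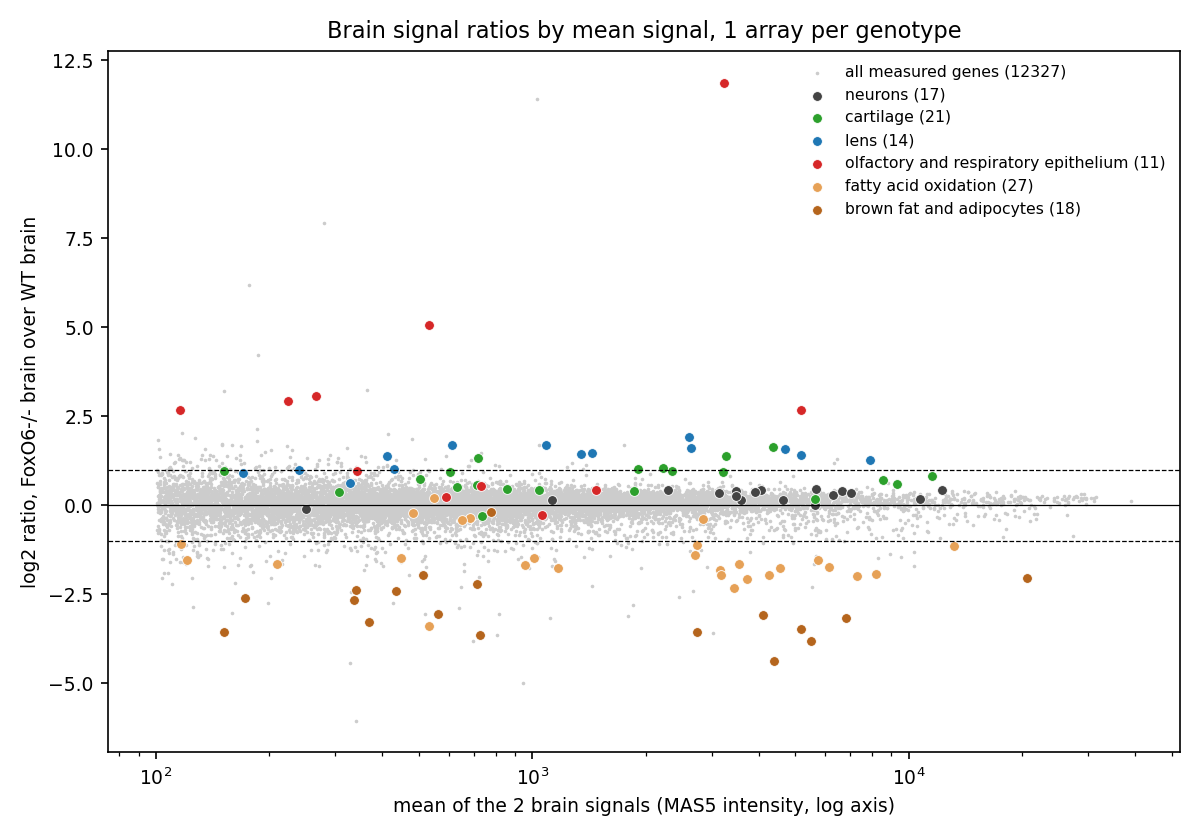
Log2 ratio of FoxO6-/- over WT brain (vertical axis) against the mean of the 2 brain signals (horizontal log axis) for 12327 genes in grey, with members of 6 gene lists in colour and the 2-fold limits dashed. Fat and fatty acid oxidation genes lie mostly below the lower limit, lens and nasal genes mostly above the upper one, and neuronal genes close to 0.

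A gene group was read by its counts and its median ratio, beside 0.05 over all genes. The known targets of FoxO factors lay on both sides of 0. Of 28 measured FoxO family members and targets 13 lay above and 15 below 0, with a median of -0.02 that became 0.12 under median centring, and 3 were at least 2-fold lower. Pck1, the gluconeogenic enzyme, had 111 against 924, Pdk4, which restrains pyruvate dehydrogenase, had 316 against 999, and Sod2, the mitochondrial superoxide dismutase, had 3059 against 8257. These genes are also abundant in brown fat, a list described below that was at least 2-fold lower in 17 of its 18 members, and whether that bears on them was not tested. Foxo1 had 919 against 766 and Foxo3 2952 against 2197, while Cdkn1b, the cell cycle inhibitor p27, had 1831 against 1721. Among the targets linked to muscle wasting, the ubiquitin ligase genes Fbxo32 and Trim63 had ratios of 0.47 and 0.15.

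Few promoters held a FoxO core element, whether or not the gene differed between the arrays. The core GTAAACA, searched on both strands and thus also as TGTTTAC, was looked for in windows from 250 bases before to 50 bases after each gene's start in RefSeq on GRCm38.p6. Of 115 higher genes with such a window 7 held it, 6.09%, and of 192 lower genes 4, 2.08%, beside 304 of 9940 measured genes, 3.06%, and 4.05% of all 27025 promoters. A match is a description of letters and no evidence of binding, and no window of Foxo6 itself was in the table. The windows of the 2 genes with the largest ratio in each direction among those that held it are printed 5′ to 3′ on the gene's strand, with the core in capitals, to show where it lies. They are Stoml3 of olfactory cilia at chr3:53488457-53488756 on the plus strand and Fam166c at chr5:30465827-30466126 on the plus strand, both higher, and Lipe, the hormone-sensitive lipase of fat cells, at chr7:25390063-25390362 on the minus strand and Rsad2, an antiviral gene, at chr12:26456403-26456702 on the minus strand, both lower.
Stoml3: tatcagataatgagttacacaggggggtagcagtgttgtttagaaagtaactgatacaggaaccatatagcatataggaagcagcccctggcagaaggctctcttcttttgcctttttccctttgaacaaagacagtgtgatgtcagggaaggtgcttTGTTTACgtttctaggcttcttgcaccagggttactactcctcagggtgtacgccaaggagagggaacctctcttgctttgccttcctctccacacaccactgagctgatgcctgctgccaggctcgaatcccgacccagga
Fam166c: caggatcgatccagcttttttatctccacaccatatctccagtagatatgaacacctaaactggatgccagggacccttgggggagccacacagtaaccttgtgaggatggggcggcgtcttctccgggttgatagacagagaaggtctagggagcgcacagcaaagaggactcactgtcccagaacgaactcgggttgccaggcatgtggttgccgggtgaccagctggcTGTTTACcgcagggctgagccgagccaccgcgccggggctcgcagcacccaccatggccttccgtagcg
Lipe: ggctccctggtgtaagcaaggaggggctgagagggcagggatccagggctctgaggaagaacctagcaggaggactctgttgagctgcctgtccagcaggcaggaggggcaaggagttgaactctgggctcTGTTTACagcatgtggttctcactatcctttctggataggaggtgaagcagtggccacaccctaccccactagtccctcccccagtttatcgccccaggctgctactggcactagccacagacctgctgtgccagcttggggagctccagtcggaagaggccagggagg
Rsad2: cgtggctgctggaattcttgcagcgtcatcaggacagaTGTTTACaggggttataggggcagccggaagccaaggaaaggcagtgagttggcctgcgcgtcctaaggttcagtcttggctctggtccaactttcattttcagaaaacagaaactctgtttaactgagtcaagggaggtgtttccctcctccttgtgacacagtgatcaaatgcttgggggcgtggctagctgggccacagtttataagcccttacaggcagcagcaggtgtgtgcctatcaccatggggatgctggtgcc
The core begins 92 bases before the start in Stoml3, 19 before it in Fam166c, 119 before it in Lipe and 212 before it in Rsad2. In brain Fam166c had 302 on the FoxO6-/- and 68.7 on the WT array, Lipe 109 against 573 and Rsad2 283 against 757. The 7 higher genes that held the core were these 2 with Tspan8, Zfp874a, Ak7, Frat2 and Epyc, and the 4 lower ones were these 2 with Akr1b10 and Mid1.

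Adipose tissue genes were far lower in FoxO6-/- brain, in nearly every measured member. Brown fat is a heat-producing tissue packed with mitochondria, and in newborn mice it lies between the shoulder blades and along the neck. Of 18 measured genes of brown fat and adipocytes 17 were at least 2-fold lower in FoxO6-/- brain, with a median of -3.07. Ucp1, the uncoupling protein that defines brown fat, had a signal of 405 on the FoxO6-/- and 8381 on the WT brain array, 20.7-fold lower. Cidea, a lipid droplet protein of the same cells, had 728 against 10248. Cox7a1 and Cox8b, the muscle and brown fat forms of respiratory chain subunits, had 426 against 5059 and 864 against 7344. The defining genes of brown fat were thus present on both brain arrays and far brighter on the WT one.

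Genes that white and brown adipocytes share behaved likewise. Adipoq, which encodes the hormone adiponectin, had 1368 against 12305, and Fabp4, a fatty acid carrier, had 8015 against 33222 with 3 probe sets between -3.95 and -2.05. Pparg, the nuclear receptor that drives adipocyte formation, had 121 against 1001, and Retn, which encodes resistin, had 209 against 818. The member that did not pass 2-fold was Ppargc1a, a coactivator of mitochondrial genes that neurons use as well, with 725 against 832 and a ratio of -0.20. In mandible and maxilla Ucp1 had 4.5 and 1.6 and Adipoq 29.5 and 10.5, all below the floor. The jaw arrays did carry 9 of the 18 genes above the floor, among them Fabp4 with 6178 in FoxO6-/- and 5239 in WT, Cox8b with 2686 and 2555 and Cidea with 402 and 328, and the median jaw ratio of these 9 was 0.07. Adding brain and jaw signals of a genotype left 17 of the 18 genes past 2-fold, with a median ratio of -2.39 for the sums.

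Further genes of fat storage, chosen after their values were seen, ran the same way. Scd1, the desaturase of fat synthesis, had 1883 against 9189 and Lpl, the lipase that takes up blood lipids, had 5064 against 14022 with both probe sets lower. Gpd1, which makes the glycerol backbone of fat, had 465 against 5582, but its 3 probe sets ran from -3.66 to 0.12. Slc2a4, the insulin-dependent glucose transporter, had 334 against 693. Whether fat tissue in the WT brain sample accounts for these lipid genes was not tested, and an uneven amount of that tissue and a change within its cells cannot be told apart in 1 array per genotype. The same holds for every tissue list below, since fewer cells of a type and less RNA per cell look alike in bulk RNA.

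Mitochondrial fuel use showed graded differences. The respiratory chain, the citric acid cycle and fatty acid oxidation all sit in the mitochondrion, and fatty acid oxidation is the pathway on which brown fat, heart and muscle rely far more than brain does. Of 27 measured genes of fatty acid oxidation, a list added after the data were seen, 22 were at least 2-fold lower and 26 lay below 0, with a median of -1.65. Acadm, the medium-chain acyl-CoA dehydrogenase, had 3405 against 12961, and Acadl, its long-chain relative, had 2914 against 11640. The gatekeeper of the liver type, Cpt1a, was the single member above 0, with 586 against 507. Ppara, the nuclear receptor that switches the pathway on, had 92.6 against 970, with 3 probe sets between -3.39 and -2.44. Since its FoxO6-/- signal lies below the floor, it was at least 9.63-fold lower when counted against the floor. Ppara was also lower in FoxO6-/- jaw, with 68.7 against 176, at least 1.75-fold against the floor.

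Genes of the citric acid cycle and pyruvate dehydrogenase, also added after the data were seen, were lower in 23 of 23 cases and by at least 2-fold in 9, with a median of -0.88. Pcx, pyruvate carboxylase, had 526 against 1728, and Suclg1, a subunit of succinyl-CoA ligase, had 2712 against 8489. The respiratory chain was lower in all 24 measured members without any passing 2-fold, and its median was -0.64. Uqcrc2 of complex III, with 8366 against 15850, had the largest difference there and Atp5a1 of the ATP synthase, with 11282 against 12660, the smallest. In mandible and maxilla 20 of the 24 respiratory genes lay above 0, with a median of 0.11. Genes of hypoxia and glycolysis lay near 0 with a median of -0.11, whose sign turned to 0.03 under median centring, although Aldoa, a glycolytic aldolase, had 7564 against 13044.

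**Figure D2:**
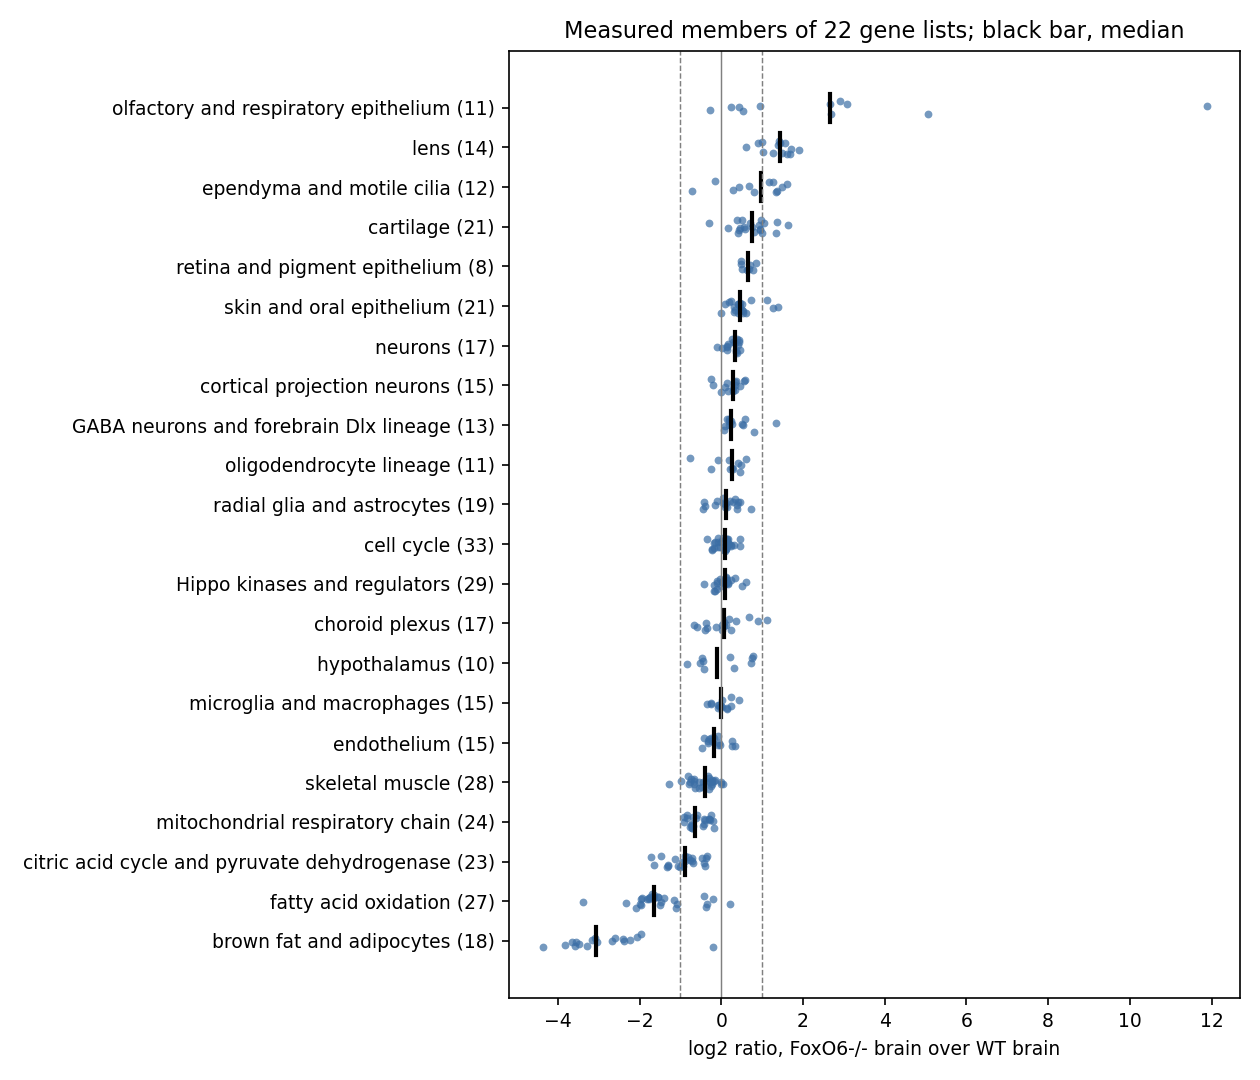
Log2 ratios of FoxO6-/- over WT brain (horizontal axis) for the measured members of 22 gene lists, with 1 row per list, the number of members in brackets and a black bar at the median. The medians run from -3.07 for brown fat and adipocytes to 2.67 for olfactory and respiratory epithelium, while the lists from endothelium to neurons lie between -0.18 and 0.34.

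Hormone genes of thyroid and parathyroid, glands of the neck, were above the floor on the WT brain array alone, as far as they were measured. Pth, which encodes parathyroid hormone, had 10.1 on the FoxO6-/- and 668 on the WT brain array, and Tg, which encodes the thyroid hormone precursor thyroglobulin, had 28.8 against 626. Both were below the floor on the FoxO6-/- array and on both jaw arrays. Against the floor they were at least 6.64-fold and 6.22-fold lower. Only these 2 of the 7 named thyroid and parathyroid genes reached the floor, so this holds for no more than that pair. The brightest salivary gland genes, by contrast, were high on both brain arrays, with 10774 against 15522 for Smgc and 7257 against 11782 for Bpifa2, both secreted salivary proteins. The median signal of the 12 measured salivary genes was 422 against 351. Scgb3a2 and Scgb3a1, secretoglobins of the airway lining, had 57.4 against 1835 and 91.7 against 1300. The other measured genes of the added airway list, among them the surfactant genes Sftpb and Sftpc, lay between -0.06 and 0.19.

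Skeletal muscle genes were lower by a small margin in nearly every member. Of 28 measured genes 26 lay below 0, with a median of -0.39, and 1 passed 2-fold. That gene was Mybpc2, the fast-muscle form of myosin-binding protein C, with 83.1 against 201. The large structural genes differed little, with 19009 against 21462 for the skeletal actin gene Acta1, while the adult fast myosin gene Myh2 had 124 against 246. Some muscle genes outside the list, chosen after their values were seen, passed 2-fold. Mb, which encodes myoglobin, had 111 against 743, and Myl2, the light chain of slow and cardiac myosin, had 468 against 1140. Myl2 was also lower in FoxO6-/- mandible and maxilla, with 100 against 266. Myh4, another adult fast myosin, had 58.9 against 168 in brain, at least 1.67-fold lower against the floor, and 802 against 1882 in jaw. The slow troponin genes of the list differed less, with ratios of -0.29 for Tnnt1, -0.01 for Tnnc1 and 0.03 for Tnni1.

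Genes of the nasal lining were higher in FoxO6-/- brain. Olfactory epithelium holds the sensory neurons of smell, and the respiratory lining and its glands secrete BPI fold proteins into the nose. Of 11 measured genes of olfactory and respiratory epithelium 6 were at least 2-fold higher in FoxO6-/- brain and 10 lay above 0, with a median of 2.67. Bpifb9b, Bpifb5, Gng13, Stoml3 and Cyp2g1 had WT signals below the floor. They counted as measured only through their FoxO6-/- signal, so the count and the median follow in part from the floor itself. The median was 0.99 with low signals raised to the floor, and 1.40 over 18 genes without a floor. Bpifb9b had a signal of 6462 on the FoxO6-/- and 1.7 on the WT brain array, at least 64.2-fold higher against the floor, and its other probe set, with 2797 against 6.9, was at least 27.8-fold higher. Bpifb5 had 1032 against 31.0 and Bpifa1, a secreted protein of the same family, had 8964 against 1408. Among genes of olfactory neurons Gng13, a G protein subunit, had 395 against 52.3, and Stoml3, a stomatin-like protein of their cilia, had 200 against 31.1. Gnal differed less, with 1691 against 1260, and Ebf2, the list member below 0, had 959 against 1163. Omp, Cnga2 and Cnga4 did not reach the floor. Cyp2g1, a cytochrome P450 of the olfactory lining, had 477 against 56.8. The odorant transduction gene Adcy3, which neurons elsewhere in the brain use in their primary cilia, had 637 against 540.

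The same nasal genes were measured on the jaw arrays with the genotypes the other way round. Bpifb9b had 4.6 on the FoxO6-/- and 6546 on the WT jaw array, and Bpifb5 had 33.4 against 1067. When brain and jaw signals of a genotype were added, Bpifb9b came to 6467 in FoxO6-/- and 6547 in WT, and Bpifb5 to 1065 and 1098. The sums weigh brain and jaw equally although each array was scaled on its own, so they are not amounts of RNA per head. For the 11 genes of the list the median ratio of the sums was -0.07 and none of the sums passed 2-fold, against 6 in brain alone. Outside the list, and chosen after its values were seen, 5430401F13Rik had 2061 against 0.75 in brain and 78.1 against 1711 in jaw, with sums of 2139 and 1711. Lcn11, a lipocalin of secretory tissue, went its own way, with 556 against 2.3 in brain and 1283 against 415 in mandible and maxilla.

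**Figure D3:**
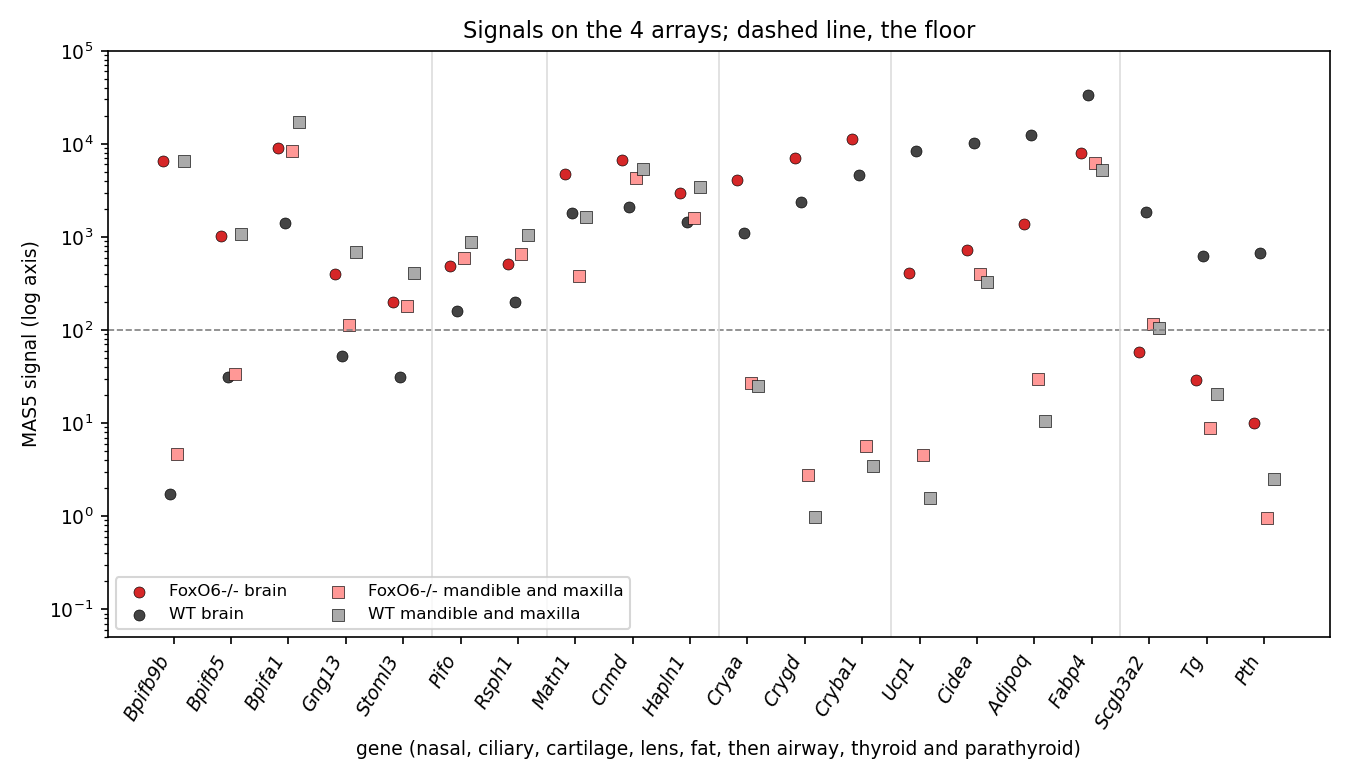
MAS5 signals (vertical log axis) of 20 genes on the 4 arrays, with circles for brain, squares for mandible and maxilla, red for FoxO6-/- and grey for WT, and the floor of 101 dashed. Bpifb9b and Bpifb5 are high on the FoxO6-/- brain and the WT jaw array, the lens genes shown are above the floor on both brain arrays and below it on both jaw arrays, and Ucp1, Tg and Pth are highest on the WT brain array.

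Genes of motile cilia were higher as a group. Motile cilia beat on ependymal cells of the ventricles and on the respiratory lining of the nose, and these genes do not tell the 2 sites apart. Of 12 measured genes of ependyma and motile cilia 6 were at least 2-fold higher in FoxO6-/- brain and 10 lay above 0, with a median of 0.98. Pifo had 486 against 159, Dynlrb2, a dynein light chain, had 1076 against 386, and Rsph1, a radial spoke protein, had 518 against 201. In jaw 11 of the 12 were lower in FoxO6-/-, with a median of -0.63, and the ratio of the sums had a median of -0.12. A wider set taken by gene symbol after the data were seen, dynein, tektin, radial spoke and other axonemal proteins, had 23 of 24 members above 0 and 4 past 2-fold, with a median of 0.43.

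Cartilage and the eye were the other groups on the higher side. Of 21 measured cartilage genes 20 lay above 0 and 5 were at least 2-fold higher, with a median of 0.74. Cnmd, which encodes the vessel-repelling protein chondromodulin, had 6624 against 2121, and Matn1, a matrilin of hyaline cartilage, had 4724 against 1823. Hapln1, the link protein of the matrix, had 2988 against 1451, with 4 probe sets between 0.93 and 1.19. Ucma, a product of growth-zone chondrocytes, was the exception with 660 against 811. As with the nasal genes, 18 of the 20 cartilage genes measured in jaw were lower in FoxO6-/- jaw, with a median of -0.80, and the sums had a median ratio of 0.01.

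All 14 measured lens genes were higher and 11 of them passed 2-fold, with a median of 1.43. The crystallins are the soluble proteins that make the lens transparent. Cryaa, the lens form of alpha crystallin, had 4112 on the FoxO6-/- and 1093 on the WT brain array, Cryba1 had 11184 against 4630, and Crygd had 7018 against 2372. Lim2, a membrane protein of lens fibres, had 596 against 228, and Gja3, a gap junction gene, had the smallest ratio at 0.61. The lens genes were dim on the jaw arrays, with 26.8 and 25.0 for Cryaa, and only 1 of the 14 reached the floor there, so that adding the tissues left 10 of them past 2-fold. Of 8 measured genes of retina and pigment epithelium all lay above 0 and none passed 2-fold, with a median of 0.66. Among them Tyrp1, an enzyme of pigment cells, had 675 against 371 with 3 probe sets between 0.68 and 0.86.

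Skin and oral epithelium had 20 of 21 genes above 0 and 3 past 2-fold, with a median of 0.46. These were the keratins Krt6a, with 507 against 193, Krt13, with 383 against 159, and Krt4, with 1114 against 515. On the jaw arrays this list was higher in FoxO6-/- too, with a median of 0.44 and 18 of 21 members above 0. Bone and osteoclast genes lay above 0 in 12 of 14 cases without any past 2-fold, with a median of 0.35.

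Genes of the brain's own cells differed far less. Over 211 measured genes of neural cell types and brain regions, without ependyma, choroid plexus and meninges, 141 lay above 0, 1 passed 2-fold on the higher and 1 on the lower side, with a median of 0.15. Of 17 pan-neuronal genes 16 lay above 0 and none passed 2-fold, with a median of 0.34. Stmn2, a tubulin regulator of growing axons, had 14046 against 10518, Snap25, a fusion protein of synaptic vesicles, had 4661 against 3439, and Syp, a vesicle membrane protein, had 241 against 260. Synapse genes had a median of 0.19 with 16 of 21 above 0. Dlg4, the postsynaptic scaffold PSD-95, had the highest ratio there at 0.65, but its other probe set above the floor gave -0.04.

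Glia and vessels showed small ratios in both directions. Radial glia and astrocytes had a median of 0.12, from Slc4a4, a bicarbonate transporter, with 826 against 1132, to Pax6, a regulator of cortical progenitors, with 825 against 501. Pax6 was lower in FoxO6-/- jaw, with 7.6 against 146. The oligodendrocyte lineage had a median of 0.27, with the lineage factor Olig1 at 1586 against 1150 and myelin basic protein, Mbp, at 882 against 1046, the 6 probe sets of which ran from -0.25 to 0.41. Microglia and macrophages had a median of -0.01, which became 0.14 under median centring. Endothelial genes lay below 0 in 12 of 15 cases with a median of -0.18, and Kdr, a receptor of VEGF, had 988 against 1315. The members above 0 were Slc2a1, a glucose transporter, with 0.35, Mfsd2a, a lipid transporter, with 0.26, and Flt1 with 0.26. Slc2a1 and Mfsd2a belong to the blood-brain barrier, but its genes did not share a direction. Cldn5 had -0.29, Abcb1a -0.07 and Slco1c1 -0.03.

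By region, the lists of cortex, striatum, hippocampus, thalamus and olfactory bulb had medians above 0, and hypothalamus, described below, did not. The 13 genes of GABA neurons and the Dlx lineage were all above 0 with a median of 0.24, and the 7 of olfactory bulb with a median of 0.40. Both lists share Sp8, a zinc finger factor of olfactory bulb interneurons, with 360 against 143, the single gene among the 211 of these lists that was at least 2-fold higher. Sp8 was lower in FoxO6-/- jaw, with 81.2 against 281, and its sums were 441 and 424. Cortical projection neurons had a median of 0.29, and Rorb, a layer IV factor, had 655 against 438 with 3 probe sets between 0.58 and 1.39. Thalamus had a median of 0.32, striatum 0.21 and hippocampus 0.10.

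Behind the forebrain the signs were mixed. Cerebellar genes had a median of 0.47, with Neurod1, a factor of granule neurons, at 2027 against 1349 and Zic1, a zinc finger factor of the same lineage, at 4847 against 5724. Neurod1 was lower in FoxO6-/- jaw, with 102 against 533. Of 9 Hox genes, which mark hindbrain and spinal cord, 8 lay below 0 with a median of -0.28. Hoxb3 had 280 against 451 and Hoxb5, the exception, had 206 against 137. Phox2a, a factor of cranial motor and autonomic neurons, had 71.4 against 143 and was the single gene among those 211 that was at least 2-fold lower, although against the floor its difference was at least 1.42-fold. The sources used here do not give how far back each brain was cut from the cord.

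In the hypothalamus list 5 genes lay above and 5 below 0, with a median of -0.11 that became 0.03 under median centring. Pmch, which encodes melanin-concentrating hormone, had 119 against 211, and Otp, a factor of neuroendocrine neurons, had 452 against 630. Six3 and Six6, factors of the anterior forebrain and eye field, had 472 against 282 and 180 against 106. Of 5 measured pituitary genes all lay above 0, with a median of 0.43, and Gh, growth hormone, had 4603 against 2976 with 4 probe sets between 0.63 and 0.95. Choroid plexus genes had a median of 0.06. There Ttr, the thyroxine carrier of cerebrospinal fluid, had 18837 against 24775, while Clic6, a chloride channel protein, had 923 against 427 and was lower in FoxO6-/- jaw, with 599 against 1497.

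Hippo and hedgehog genes, which the study examined in the jaw, differed little in brain. Hippo signaling is a kinase cascade in which LATS kinases keep the coactivators YAP and TAZ out of the nucleus. None of its 29 measured kinases and regulators passed 2-fold, and the median was 0.10. Lats2 had 956 against 1286, but its second probe set above the floor gave 0.08, and Lats1 had 1769 against 1613. Wwc1, an upstream activator of the cascade, had 1443 against 1017 with both probe sets higher, and Tead3, a DNA-binding partner of YAP, had 262 against 173. The 24 measured targets of YAP and TAZ had a median of 0.10, with Ccn2 at 3401 against 2278 and Ankrd1 at 93.9 against 153. In the hedgehog pathway, which patterns ventral brain, Shh had 1128 against 721 and Gas1, a co-receptor, 10660 against 6955, while the target Gli1 had 178 against 229. The hedgehog median was 0.22.

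Cell cycle and immediate early genes lay close to the median of all genes. Of 33 cell cycle genes none passed 2-fold, and the median was 0.10. Mki67, a marker of dividing cells, had 4248 against 4236, and Ccnd1, the cyclin of the growth factor response, had 4887 against 3583 with 3 probe sets between 0.18 and 0.59. Immediate early genes, which report recent activity or handling of tissue, had a median of 0.04 that became -0.0027 under quantile normalization. Genes of heat shock and the unfolded protein response had a median of 0.21, none of them past 2-fold. Of 14 interferon-stimulated genes, a list added after the data were seen, 4 were at least 2-fold lower, Trim30a, Xaf1, Rsad2 and Ifi27. That is 28.6% of the list, beside 2.03% of all measured genes. The remaining 10 lay between -0.32 and 0.26.

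Long non-coding RNA genes, a grouping made by RefSeq gene type after the data were seen, held many of the lower genes. Of 225 measured ones 23 passed 2-fold on the lower and 4 on the higher side, 10.2% and 1.78%, beside 2.03% and 1.13% of all genes. Their median ratio was -0.0042, so the group as a whole did not lie to 1 side. Meg3, a maternally expressed RNA abundant in neurons, had 4879 on the FoxO6-/- and 15816 on the WT brain array, and its 11 probe sets above the floor ran from -2.27 to -0.65. Mirg, from the same imprinted cluster, had 365 against 769. Neat1, the scaffold of nuclear paraspeckles, had 242 against 801, and Snhg11 had 593 against 1694. Malat1, another nuclear RNA, had 1463 against 2580, with 7 probe sets between -1.33 and -0.34. In jaw Meg3 had 16690 against 20269 and Neat1 1048 against 1398, so both were lower in FoxO6-/- there too, by less than 2-fold.

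Genes that differed by 2-fold in brain and in jaw were counted by direction. Of 11494 genes measured in both tissues 5 were higher and 14 lower in both, 24 were higher in brain and lower in jaw, and 0 were lower in brain and higher in jaw. The share of all genes past 2-fold in jaw is not given here, so these counts have no background beside them. By direction alone, 65.8% of the higher and 62.0% of the lower genes measured in jaw were lower in FoxO6-/- jaw, beside 51.8% of all. Higher in both were Lcn11, Gm5802, the metallothionein gene Mt4 of stratified epithelium, the zinc finger gene Zfp874a and Msl3l2. Among the lower genes Ces1d, a carboxylesterase abundant in fat, had 250 against 1172 in brain and 160 against 666 in jaw, and Hddc3 had 191 against 752 and 165 against 574. Pold3, a subunit of DNA polymerase delta, had 287 against 1029 and 346 against 1116, but its 3 probe sets in brain ran from -1.84 to -0.16. Sums of brain and jaw differed by less than 2-fold for 23 of the 24 genes with opposite signs, whose choice makes their sums cancel. They did so for 107 of all 114 higher genes measured in jaw. Those were chosen by a high brain ratio, which adding a jaw signal tends to draw toward 0. Neither count can therefore show that such genes even out between the tissues.

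**Figure D4:**
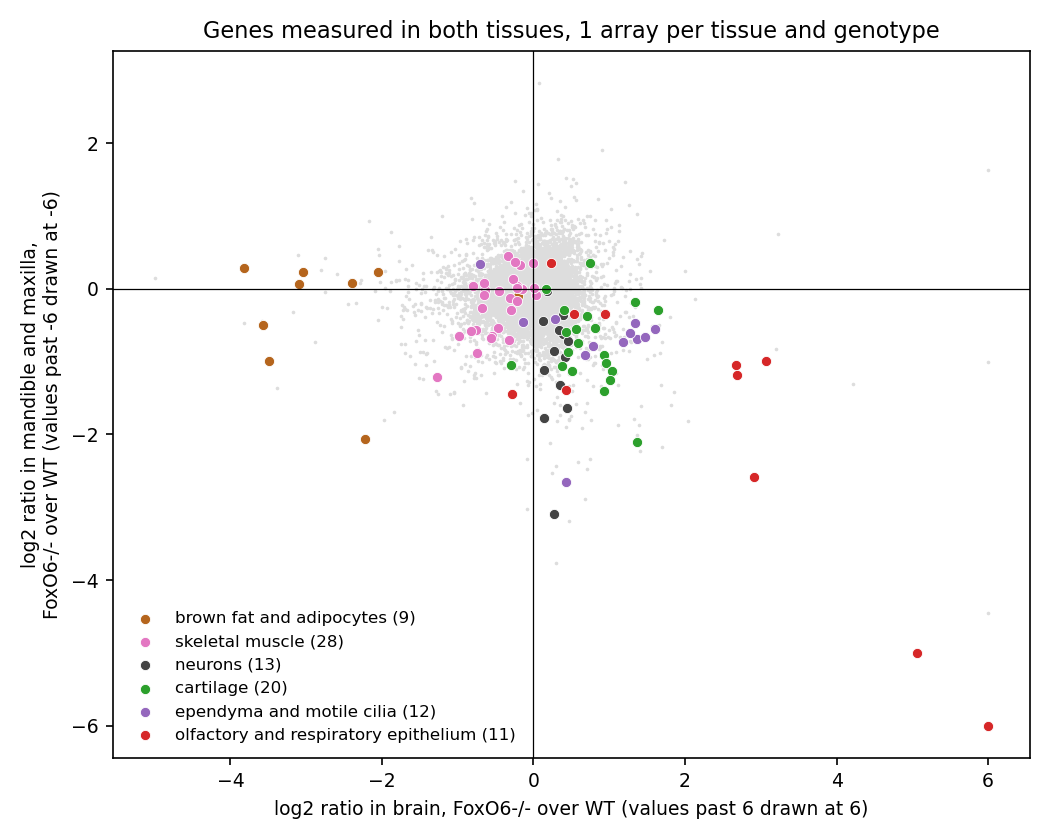
Log2 ratios of FoxO6-/- over WT in brain (horizontal axis) and in mandible and maxilla (vertical axis) for genes above the floor in both, with members of 6 lists in colour and values past 6 or -6 drawn at the edge. Nasal, ciliary and cartilage genes lie mostly to the lower right, brown fat genes at the far left and skeletal muscle genes just left of 0.

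Genes beside Foxo6 on its chromosome and genes of the sex chromosomes were read as checks of the samples. Of the 10 nearest protein-coding neighbours 5 were measured, and none passed 2-fold. Hivep3 had 690 against 1163, but its second probe set above the floor gave 0.16, and Edn2, which encodes endothelin 2, had 140 against 84.5. Foxj3 had 3652 against 2803, Ctps 1564 against 1456 and Scmh1 460 against 492, while a dimmer probe set of Scmh1 had 100 against 244. Of the Y-linked genes Kdm5d had 639 against 609, Uty 429 against 407 and Eif2s3y 1083 against 1866, so both brain arrays held RNA of male animals. The named probe set of Xist lay below the floor on all 4 arrays.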

How the data were processed

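Each of 4 arrays carried RNA of 1 tissue, brain or mandible and maxilla, and 1 genotype. The authors normalized the arrays with the MAS5 algorithm, and they deposited the resulting intensity per probe set without a log transform. The 2% trimmed mean of every array was 500.0, so no further scaling was applied. The labels name the miRNeasy kit and the methods the RNeasy kit for RNA extraction. Such scaling gives each array the same mean, so a tissue that is abundant in 1 sample lowers the relative signal of all others.

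Of 45101 probe sets 64 are controls, 34945 of the rest have 1 gene, 932 several and 9160 none here. Symbols of 34741 were matched by Entrez ID to RefSeq genes of GRCm38.p6. A gene was read from the probe set that was brightest on average across all 4 arrays, and it was measured when its mean brain signal was at or above 101, the median of all signals without controls. With 1 array per group no test was run. The procedure was tested on simulated data.

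The members and the 50 gene lists were chosen with earlier results of these data known, and 10 groupings were added after the data were seen. Named genes were up to 15 with all of at least 2 probe sets past 2-fold and up to 12 above the 75th percentile of signal, 524, in each direction, members of each list past 2-fold or else up to 4 from each end, genes the study names, 5 neighbours of Foxo6 on each side, sex chromosome genes, and up to 5 genes past 2-fold the same way in both tissues. Other named genes illustrate a list and were chosen after their values were seen. The lists of pineal gland and of enamel and dentin had 0 measured members. The alternatives changed the scaling (quantile normalization or median centring), the floor (none, 524, or low signals raised to it) or the probe sets used (the mean, the median or only gene-specific ones). Tables were computed in Python 3.11.15 with pandas 2.3.3 and numpy 2.4.6 and drawn with matplotlib 3.10.9.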

Additional observations from a re-analysis of the deposited data

Results flagged for a closer look

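The 24 genes that were at least 2-fold higher in FoxO6-/- brain and at least 2-fold lower in FoxO6-/- mandible and maxilla are given here with their jaw ratio, because the tissues ran in opposite directions. With 1 array per tissue and genotype this difference was not tested. For 13 of the 24 genes 1 brain signal lay below the floor, so their brain ratios are bounds. Stoml3, for example, was at least 1.99-fold higher in brain when counted against the floor. Nasal and olfactory genes had jaw log2 ratios of -10.47 for Bpifb9b, -5.00 for Bpifb5, -4.45 for 5430401F13Rik, -2.58 for Gng13, -1.18 for Stoml3 and -1.04 for Bpifa1. For 7 of the 24 genes the FoxO6-/- jaw signal lay below the floor of 101, so their log2 ratios depend on a signal that is not measured well, and against the floor Bpifb9b was at least 65.0-fold, Bpifb5 10.6-fold, 5430401F13Rik 17.0-fold, Trim66 3.88-fold, Dcdc2a 2.87-fold, Sp8 2.79-fold and Ctxn3 2.25-fold lower in jaw. The cartilage genes Matn1, Epyc and Hapln1 had -2.10, -1.25 and -1.13. Genes of detoxification and transport had -2.17 for Gstm1, -1.41 for Slc27a2, -1.31 for Inmt and -1.004 for Sult1c1. Genes that neural tissue expresses too had -2.01 for Fam107a, -1.86 for Fstl5, -1.79 for Sp8 and -1.60 for Ctxn3. The centriole gene Deup1 had -1.32, the chloride channel gene Clic6 -1.32, the claudin gene Cldn9 -1.61, Dcdc2a -1.87, Trim66 -2.22, Ncmap -1.15 and Gm13648 -1.81.

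Gene lists were flagged when their medians were opposite and past 0.5 in both tissues. Olfactory and respiratory epithelium had a jaw median of -1.18 beside 2.67 in brain, cartilage had -0.80 beside 0.74, and ependyma and motile cilia had -0.63 beside 0.98. The pattern was not particular to these lists. With smaller brain medians, neurons had -0.85 in jaw beside 0.34, olfactory bulb -0.72 beside 0.40, and GABA neurons and the Dlx lineage -0.54 beside 0.24. Thalamus, by contrast, had 0.12 in jaw beside 0.32. These differences were not tested. How each pair of brain and jaw samples was divided at dissection, and whether they came from the same animals, is not stated in the sources used here.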

How the results depend on the processing

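The number of genes past 2-fold depends on the treatment of low signals and on the scaling. Without a floor 1515 genes were higher and 1314 lower, and with the floor at 524 the numbers were 35 and 111. Median centring gave 227 higher genes, and with it 54.2% of the genes past 2-fold were on the higher side, against 35.7% as reported. The median of olfactory and respiratory epithelium was 1.40 without a floor, 0.53 with the higher floor, 0.99 with low signals raised to the floor and 0.85 when all probe sets of a gene were averaged. For brown fat and adipocytes it was -2.63 with low signals raised to the floor, and for thyroid and parathyroid it was -1.47 over 7 genes without a floor and -2.68 with low signals raised. The cause of these shifts was not tested beyond the construction of each alternative. Of 52 lists with a median 9 changed sign under another scaling, all of them within 0.13 of 0. Of 328 named genes none that differed by 2-fold changed sign under any of the 8 alternatives, and 78 of 2403 values moved by more than 0.39, the spread between probe sets of a gene. Removing the floor or setting it at 524 keeps each ratio as it was, and raising low signals only draws a ratio toward 0. Median centring shifted the median of all genes by only 0.14. Such settings could hardly reverse a gene past 2-fold, so the lack of reversals bears mainly on the choice of probe sets. MAS5 signals below the floor scatter widely, so ratios that rest on them are bounds. No paired analysis was possible because the labels give each group 1 array and no replicate number.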

Other observations

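Other groups that the brain samples could hold had medians between -0.34 and 0.39. Inner ear genes lay above 0 in 8 of 9 cases with a median of 0.39, and Myo7a, a myosin of hair cells, was the exception with 99.3 on the FoxO6-/- and 293 on the WT brain array. Sensory ganglia had a median of 0.08 and Schwann cells 0.18. Salivary gland genes had a median of -0.31 and 2 of 12 members past 2-fold, namely Amy1, an amylase, with 83.2 against 272 and Elf5, a factor of glandular epithelium, with 527 against 253. Their brightest members were lower by less than 2-fold, Smgc and Bpifa2 as given above and Pip with 1749 against 2271. Meninges had a median of 0.19, where Foxc2, a forkhead factor of mesenchyme, had 497 against 263. Erythroid genes had -0.28 over 3 members and granulocytes and lymphocytes -0.34 over 6. Midbrain and monoamine neurons had a median of 0.23, and Otx2, a factor of anterior brain, had 743 against 465. Otx2 was lower in FoxO6-/- jaw, with 81.0 against 596. Pericytes and smooth muscle had -0.12 and hindbrain neurons and motor nuclei -0.13, both of which turned positive under median centring.

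A few single genes of brain patterning or hormone action, chosen after their values were seen, differed by more than 2-fold with 1 probe set above the floor. Fgf15, a growth factor of the early forebrain and midbrain, had 344 in FoxO6-/- and 117 in WT brain, and was dim in jaw with 7.6 and 11.1. Tfap2d, an AP-2 factor, had 200 against 54.5. Irs4, an insulin receptor substrate, had 267 against 762 in brain and 47.8 against 24.5 in jaw.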
